A study of Rattus norvegicus with 16 samples.

Results

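A set of 8 Notch pathway genes was examined here in cells cultured from rat olfactory mucosa: the receptor genes Notch1, Notch2 and Notch3, the ligand genes Jag1, Jag2 and Dll1, and the target genes Hes1 and Hey1. These 8 genes were chosen by name, through the gene names of the array and the current names of its RefSeq accessions, from 26207 genes on the array, of which 20571 could be tested. All 8 were found, on 10 probes, and all 8 were tested. Dll1, Hes1 and Hey1 reached that test through only some groups, since Dll1 was well above background on 6 of the 16 arrays, Hey1 on 7 and Hes1 on 10.

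The study sorted 4 populations of cells by flow cytometry and hybridised each sample, labelled with Cy3, to a single-colour Agilent array. All cells came from male Fischer rats. The CD90, p75 and TRKA populations were named for the surface protein used in the sort and grew under the same culture protocol, with no other agent given in the labels. The TRKA-TGF population was conditioned with TGF-alpha, a ligand of the EGF receptor, before the sort. Each population had 4 samples described as biological replicates, the sorted cells were stated to be 93 to 97% pure, and the RNA was amplified by a global PCR protocol before labelling. Nothing in the labels ties samples of one replicate number to a shared animal or culture, and the p-values below measure the spread between these samples.

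In Notch signalling a membrane-bound ligand on one cell, of the Jagged or Delta-like type, binds a receptor on its neighbour. The receptor is then cut by an ADAM protease and by gamma-secretase, and its intracellular part enters the nucleus and joins the DNA-binding protein RBPJ and a Mastermind co-activator. Genes of the Hes and Hey families, which encode transcriptional repressors, are among the usual direct targets. In the nervous system the pathway is known for holding progenitors undifferentiated and for its parts in the glial lineage, and in vessels Notch3 and Jag1 are known for their roles in mural cells.

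Sequences are shown where the data bear on a single stretch of a gene. RefSeq promoter windows, from 250 bases before to 50 bases after the gene's start on the GRCr8 build, were at hand for 7 of the 8 members. They were searched on both strands for TGGGAA, the core of the site that RBPJ binds, which 25.7% of all 33469 windows held at least once and 3.85% at least 2 times. Hes1 and Dll1 each held it 2 times, Notch3 held it 1 time after the start, and the windows of Notch1, Notch2, Jag1 and Jag2 did not hold these letters. The longer form GTGGGAA, which overlaps the core, was found 1 time each in Hes1 and Dll1 and in 6.29% of all windows. The N box CACNAG, a site of Hes repressors, was found 4 times in Hes1 and 4 times in Notch1, against at least 2 times in 11.2% of all windows. The stretch of Hes1 at chr11:84213046-84213195 and that of Dll1 at chr1:64993325-64993474, both on the minus strand and both before the start, are printed 5′ to 3′ because the results on the targets turn on Hes1 and Dll1 holds the same core, with each TGGGAA core, on either strand, in capitals. A match describes letters only.
Hes1: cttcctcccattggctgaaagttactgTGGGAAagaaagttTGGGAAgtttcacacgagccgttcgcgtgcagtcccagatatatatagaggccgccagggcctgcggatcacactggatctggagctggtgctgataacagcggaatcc
Dll1: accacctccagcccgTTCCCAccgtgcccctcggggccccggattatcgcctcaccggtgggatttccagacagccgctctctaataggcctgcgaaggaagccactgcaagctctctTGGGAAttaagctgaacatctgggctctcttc

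Levels are log2 processed signals minus the array's 75th percentile, so that a level of 0 is the brightness of the 75th percentile of probes and 1 unit is a doubling. A level describes a probe across arrays and was not set against the level of another probe. Between 51.4% and 57.5% of spots were well above background on the TRKA arrays, against 66.4% to 72.4% on the other arrays. Levels also spread more in TRKA, where a gene's 4 levels had a median SD of 1.08 (0.54 to 0.68 elsewhere). The p75 and TRKA samples shared one slide and scan, and the TRKA-TGF and CD90 samples shared another, with each group in its own row of its slide. Therefore only TRKA against p75 and TRKA-TGF against CD90 were compared within a slide. For the remaining 4 comparisons the slide and the group cannot be told apart, nor can the row and the group within a slide.

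The labels of CD90 and p75 were checked first against the genes of their antigens. Thy1, which encodes CD90, had a mean level of 3.44 ± 0.29 (SD, n = 4) in CD90 and -1.56 ± 0.32 in p75. Ngfr, which encodes p75, had a mean level of 3.16 ± 0.24 in p75 and was not well above background on any TRKA array. It was well above background on all 4 TRKA-TGF arrays, with a mean level of -0.37, and on 2 CD90 arrays. Markers of other cell types also moved with the groups. On the p75 arrays all 12 genes of a glial list were well above background, against 9 to 11 on the TRKA-TGF arrays, 6 to 7 on the CD90 arrays and 4 to 6 on the TRKA arrays. The summed level of 12 macrophage genes, of which at least 9 were well above background on every array, was 8.78 to 9.19 in TRKA and 7.53 to 7.68 in TRKA-TGF, against 3.80 to 4.75 in CD90 and 2.08 to 3.03 in p75. That of 11 smooth muscle and pericyte genes, of which at least 6 were so, was 6.94 to 7.07 in CD90 and 5.56 to 5.78 in p75, against 1.17 to 3.46 in TRKA and 0.77 to 2.77 in TRKA-TGF. That of 12 fibroblast genes, of which at least 4 were so, was 8.96 to 9.15 in CD90 and 7.71 to 7.79 in p75. It was 7.04 to 7.35 in TRKA and 2.93 to 3.97 in TRKA-TGF. A sum follows its brightest probes. In TRKA the first 3 fibroblast genes had mean levels of 6.89 (Col1a1), -3.03 (Pdgfra) and -7.63 (Dcn, on no array well above background). Of the 12 fibroblast genes, 11 were lower than in CD90 in each TRKA population. All genes lower were 16.6% in TRKA and 7.19% in TRKA-TGF. In bulk samples of this kind, fewer cells of a type and less RNA per cell cannot be told apart.

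The members called in each comparison were counted with limma at an adjusted p under 0.05 (Benjamini-Hochberg over all genes tested) and set beside the share of all genes called. In CD90 against p75 no member was called, while 2 members, Notch1 and Jag2, had an unadjusted limma p under 0.05, and 7.25% of all genes were called (3.68% higher and 3.57% lower in CD90). In TRKA against p75, 4 of 8 members were called, 1 higher and 3 lower in TRKA, where 35.7% of all genes were called (18.8% higher and 16.9% lower). In TRKA against CD90, 3 of 8 were called, 1 higher and 2 lower, with 34.9% of all genes called (18.3% higher and 16.6% lower). With 8 members, these counts lay near what the shares over all genes give.

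In TRKA-TGF against TRKA, 2 of 8 members were called, 1 in each direction, beside 26.4% of all genes (13.5% higher and 12.9% lower in TRKA-TGF). In TRKA-TGF against p75, 3 members were called, all lower in TRKA-TGF, beside 15.1% of all genes (7.97% higher and 7.15% lower). In TRKA-TGF against CD90, 1 member was called, Hes1, beside 14.9% of all genes (7.72% higher and 7.19% lower). The median difference over the 8 members was -1.04 in TRKA-TGF against p75, where that over all genes was 0.14, and it was between -1.22 and 0.29 in the other 5 comparisons.

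Groups did not overlap for 4 members in TRKA against p75, beside 31.5% of all genes, and for 4 in TRKA-TGF against p75, beside 28.8%. They did not overlap for 3 members in TRKA-TGF against CD90, beside 28.6% of all genes, for 2 in TRKA against CD90, beside 30%, for 2 in CD90 against p75, beside 19%, and for 1 in TRKA-TGF against TRKA, beside 26.4%. Both counts of 4 include Dll1, which was well above background on 0 p75 arrays, 1 TRKA array and 3 TRKA-TGF arrays. These 6 comparisons share their samples, so calls of one gene in several of them are not separate observations.

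**Figure D1:**
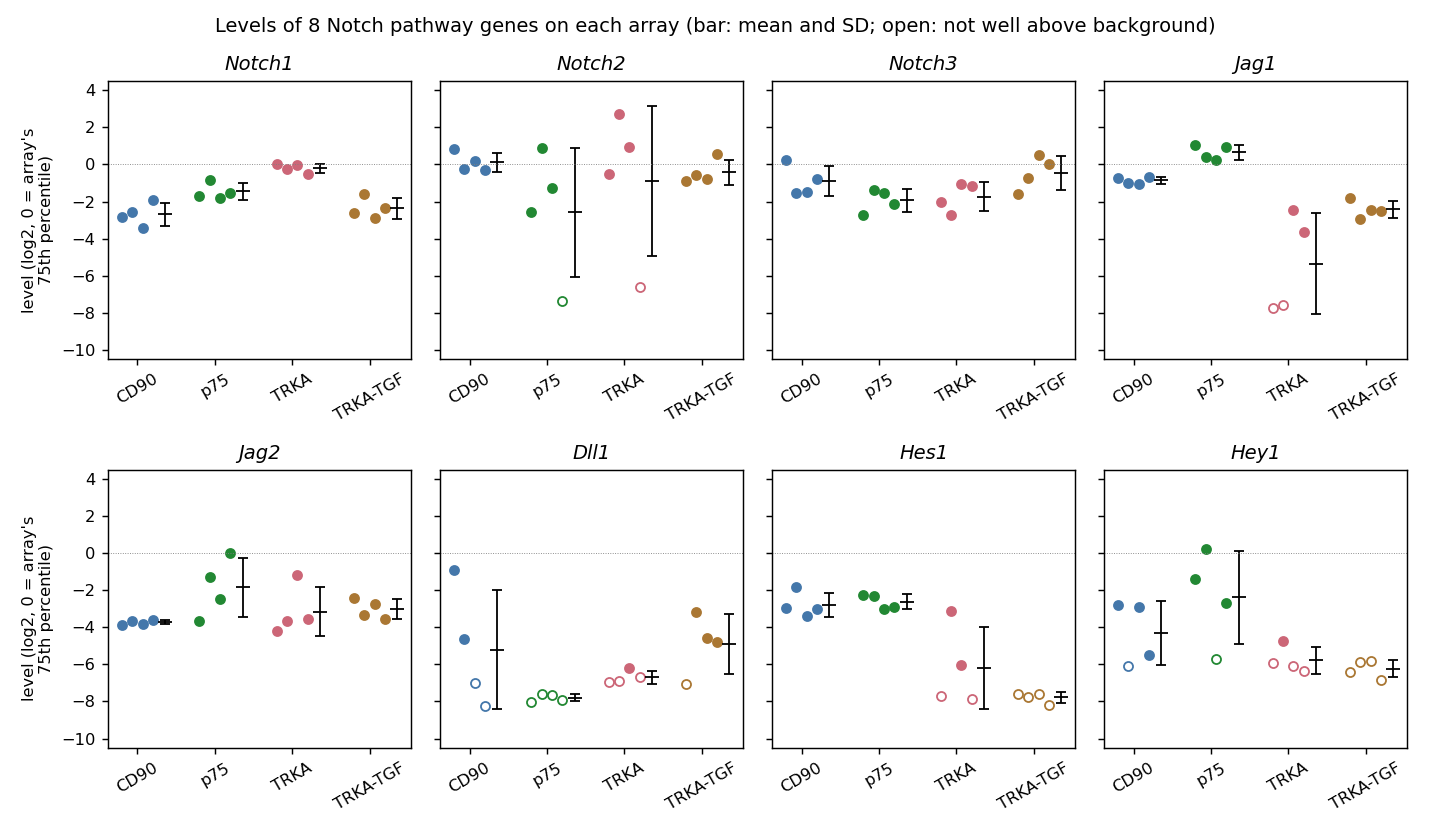
Level of each of the 8 genes on every array (y axis, log2 relative to the array's 75th percentile) in the 4 groups (x axis). Each point is 1 array, open points were not well above background, and the bar beside each group is the mean and SD of 4 arrays. Hes1 is open on all 4 TRKA-TGF arrays, Jag1 and Hes1 each on 2 of 4 TRKA arrays.

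Among the receptors, Notch1 gave opposite results from its 2 probes. The probe that stood for the gene, because its mean level was the higher, starts at position 9315 of the transcript and lies at chr3:4631829-4631888 on rn4, minus strand. On it the levels were 0.02, -0.27, -0.04 and -0.54 in TRKA, and -1.68, -0.82, -1.79 and -1.54 in p75. They were -2.63, -1.57, -2.90 and -2.34 in TRKA-TGF, and -2.86, -2.59, -3.44 and -1.91 in CD90. All 4 TRKA arrays lay above every other array.

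By this probe Notch1 was higher in TRKA than in p75 by 1.25 ± 0.37 (SE; limma adjusted p = 0.0173) and than in CD90 by 2.49 (adjusted p = 0.000128). It was lower in TRKA-TGF than in TRKA by 2.15 on the log2 scale, a difference of -2.15 ± 0.37 (adjusted p = 0.000714). The call against p75 was lost without p75 replicate 3 (1.14, adjusted p = 0.0511). It was also lost, at 0.36 (adjusted p = 0.478), when arrays were scaled on probes well above background on all of them, a scaling that moved the median of all genes in this comparison from -0.01 to -0.90. The order of the means was TRKA, p75, TRKA-TGF and CD90. Of the neighbours in that order, p75 and TRKA-TGF did not differ beyond the test's threshold (adjusted p = 0.134, limma), nor did TRKA-TGF and CD90 (adjusted p = 0.657).

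The other Notch1 probe starts at position 7022 and lies at chr3:4634122-4634181 on rn4, in the coding part of a transcript whose other probe lies nearer the 3′ end. Its 60 bases are printed to show the stretch from which the opposite order came, with no base marked.
Notch1 probe at 7022: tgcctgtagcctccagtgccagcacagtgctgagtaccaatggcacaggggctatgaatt
On this probe the levels were -4.70, -4.48, -2.96 and -4.22 in TRKA. They were -1.34, 0.04, -1.08 and -0.16 in p75, and -0.11, -0.68, -0.24 and -2.14 in CD90. In TRKA-TGF they were -1.38, -2.11, -3.62 and -1.59, so that TRKA held the lowest array and did not overlap p75 or CD90.

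With this probe standing for Notch1, the gene was lower in TRKA than in p75 by a difference of -3.46 ± 0.60 (SE; limma adjusted p = 0.000443), and lower than in CD90 by a difference of -3.30 (adjusted p = 0.000632). It was higher in TRKA-TGF than in TRKA by 1.92 (adjusted p = 0.0293). The direction of every call on Notch1 therefore depends on the probe, and the levels of both probes ran against each other over the 16 arrays (r = -0.59, a description). The last of these 3 calls was also lost under other scalings, at 0.22 (adjusted p = 0.828) after quantile normalization and 0.35 (adjusted p = 0.716) in the authors' deposited table.

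The same contrast of probe positions was measured over all genes. In 2230 RefSeq transcripts with at least 2 probes kept at different positions, the difference between TRKA and p75 was larger on the probe nearest the 3′ end than on the one nearest the 5′ end by a median of 0.59, and the former was the higher in 61.8% of transcripts. For Notch1 that gap was 4.71, at the 92.3 percentile of those transcripts. In 41 of the 2230 transcripts (1.84%), both probes were called in opposite directions between TRKA and p75. In TRKA-TGF against p75 the median gap was -0.06, and no transcript had such a pair of calls. The part of probe position in the Notch1 result was not tested.

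**Figure D2:**
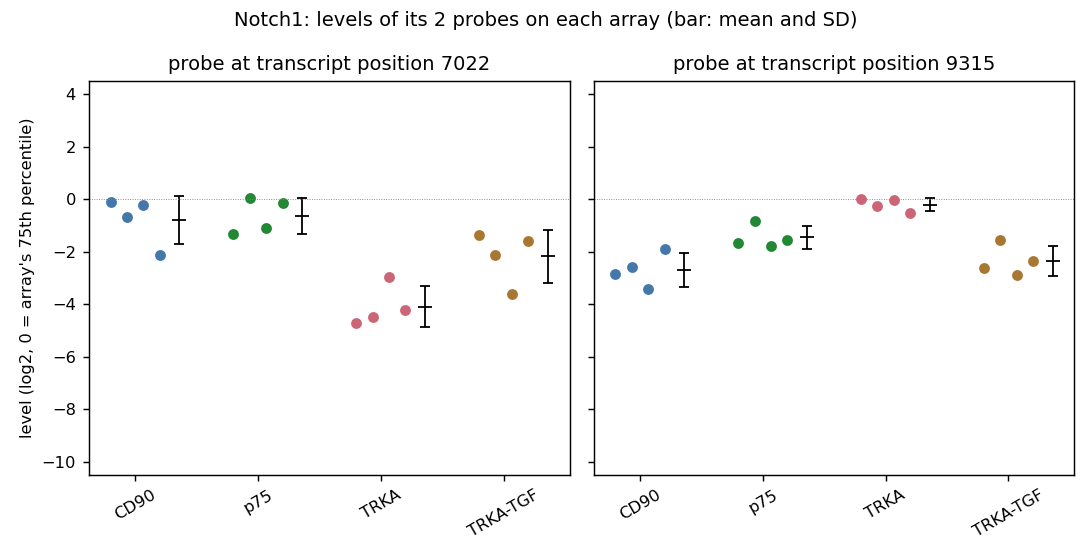
Levels of Notch1 on its probe at transcript position 7022 (left) and on its probe at position 9315 (right), in log2 relative to the array's 75th percentile, 1 point per array with the mean and SD of each group of 4. TRKA is the lowest group on the left, with a mean of -4.09, and the highest on the right, with a mean of -0.21.

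Notch2 was well above background on 14 of 16 arrays and was not called in any comparison. Its levels were 0.83, -0.26, 0.18 and -0.31 in CD90 and -0.90, -0.56, -0.81 and 0.56 in TRKA-TGF. In p75 they were -2.56, 0.88, -1.27 and -7.35, and in TRKA -0.50, 2.70, 0.93 and -6.61. The lowest value of p75 and of TRKA was in each case the array that was not above background, and the groups overlapped in all 6 comparisons. The 95% interval for TRKA minus p75 ran from -2.18 to 5.59 log2 units, so a difference of several-fold in either direction was not detectable with these samples.

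Notch3, the receptor known from vessel mural cells, was well above background on all 16 arrays. Its levels ran from -1.52 to 0.22 in CD90, from -2.75 to -1.38 in p75, from -2.74 to -1.07 in TRKA and from -1.61 to 0.50 in TRKA-TGF. The groups overlapped in every comparison, and none was called, although 6 of the alternative fits gave a call. The widest gap was that of TRKA-TGF over p75, at 1.49 with a 95% interval from 0.30 to 2.68 (limma adjusted p = 0.0938), and 3 of 17 settings called it (adjusted p down to 0.0403). The order of the means was TRKA-TGF, CD90, TRKA and p75, and no neighbours in it differed beyond the threshold.

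Among the ligands, Jag1 was high in p75 and CD90 and low in TRKA. Its levels were 1.07, 0.39, 0.26 and 0.92 in p75 and -0.73, -0.99, -1.04 and -0.68 in CD90. In TRKA-TGF they were -1.81, -2.92, -2.47 and -2.50. In TRKA they were -7.72, -7.58, -2.45 and -3.64, of which the first pair were not well above background. The p75, CD90 and TRKA-TGF groups did not overlap one another, and TRKA overlapped only TRKA-TGF.

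Jag1 was lower in TRKA than in p75 by a difference of -6.01 ± 0.94 (SE; limma adjusted p = 0.000202) and lower than in CD90 by one of -4.49 (adjusted p = 0.00193). Both calls were made under all 17 alternative settings run for this gene, with sizes of -3.66 and -2.26 under normexp, a background correction that adds an offset. It was also called lower in TRKA-TGF than in p75, at -3.09 (adjusted p = 0.0402), and higher in TRKA-TGF than in TRKA, at 2.92 (adjusted p = 0.0343). These 2 calls were less firm, since leaving out any one of the 8 arrays ended the first (adjusted p from 0.0586 to 0.0989), and 10 of 17 settings ended the second (adjusted p up to 0.185). Between p75 and CD90 the groups did not overlap and the difference of -1.52 did not pass the test (adjusted p = 0.468).

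Jag2, the other Jagged ligand, was well above background on all 16 arrays by the probe kept for it and was not called, although 5 of the alternative fits gave a call. Those for TRKA against CD90 were 2.27 after quantile normalization (limma adjusted p = 0.0189) and 2.08 in the authors' deposited table (adjusted p = 0.0270), and those for TRKA against p75 lay between -2.19 and -1.91. Its levels were -3.67, -1.28, -2.45 and 0.01 in p75 and -4.21, -3.64, -1.20 and -3.56 in TRKA. They ran from -3.85 to -3.61 in CD90 and from -3.57 to -2.41 in TRKA-TGF. CD90 was the tightest group, with an SD of 0.11, and its 4 arrays lay just below those of TRKA-TGF without overlap (difference 0.71, limma adjusted p = 0.630). A second Jag2 probe was well above background on 1 of 16 arrays, that of p75 replicate 2, and did not enter the test.

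Dll1, a Delta-like ligand, was near or below background on most arrays. It was well above background on 2 CD90 arrays, at -0.93 and -4.62, and on 3 TRKA-TGF arrays, at -3.19, -4.58 and -4.80. It was so on 1 TRKA array, at -6.21, and on no p75 array. With the p75 group at a bound, the mean of TRKA-TGF was at least 4.76-fold higher than that of p75, but the difference did not pass the test (limma adjusted p = 0.147). The 2 groups did not overlap, but the lowest TRKA-TGF level, -7.06, and the highest p75 level, -7.60, were both not well above background. Bounds of this kind take the dim group at the lowest signal well above background on each array, or at its own level where that is higher. They are approximate, hold for the group means at this scaling, and leave out the spread between arrays.

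Among the targets, Hes1 was low in TRKA-TGF and in most TRKA samples. Its levels were -2.24, -2.33, -3.0 and -2.92 in p75 and -2.95, -1.83, -3.37 and -3.03 in CD90. In TRKA-TGF they were -7.58, -7.76, -7.60 and -8.19, with no array well above background. In TRKA they were -7.72, -3.13, -6.03 and -7.88, with 2 arrays well above background, those of replicates 2 and 3. All 8 p75 and CD90 arrays lay above all 4 TRKA-TGF arrays, while 1 TRKA array lay among the CD90 levels.

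With TRKA-TGF at a bound, as for Dll1, the mean of Hes1 was at least 18.2-fold lower there than in p75 (limma adjusted p = 0.000423). Against CD90 it was at least 16.2-fold lower (adjusted p = 0.000614). The 95% intervals of the fitted differences ran from -6.88 to -3.43 and from -6.71 to -3.26. Both calls were made under all 17 settings run, and the second lies within a slide. In TRKA, Hes1 differed from p75 by -3.56 ± 0.80 (SE, adjusted p = 0.00322), also within a slide, and from CD90 by -3.39 (adjusted p = 0.00447). After quantile normalization these differences were -2.56 (adjusted p = 0.0507) and -2.33 (adjusted p = 0.0725), and the call against CD90 was also lost in the authors' deposited table (-2.38, adjusted p = 0.0720) and with the arrays of 2 groups alone (adjusted p = 0.0553). With normexp, Hes1 stayed called at smaller sizes, -1.70 and -1.62 for TRKA-TGF and -0.99 and -0.91 for TRKA, against p75 and CD90 in each case. The levels of Hes1 split the groups as the summed level of the smooth muscle and pericyte list did. That split was opposite to the summed level of the macrophage list. Of the 11 smooth muscle and pericyte genes, 5 were lower in TRKA than in p75 and 6 were not called, beside 16.9% of all genes lower. The same counts held in TRKA-TGF against p75, beside 7.15%. In each TRKA population 9 of the 11 were lower than CD90, beside 16.6% of all genes in TRKA and 7.19% in TRKA-TGF. The fibroblast list went the same way by counts. Of its 12 genes, 11 were lower than CD90 in each TRKA population. Against p75, 3 were lower in TRKA and 6 in TRKA-TGF, and 0 were higher. The part of the genes of these lists in the Hes1 result was not tested. The order of the means was p75, CD90, TRKA and TRKA-TGF. Neither p75 and CD90 (adjusted p = 0.962, 95% interval of CD90 minus p75 from -1.89 to 1.55) nor TRKA and TRKA-TGF (adjusted p = 0.164) differed beyond the threshold.

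Hey1, the second target, was well above background on 3 p75 arrays, 3 CD90 arrays, 1 TRKA array and no TRKA-TGF array. Its probe, printed because it reads a coding stretch and is the only one of the gene, starts at position 482 and lies at chr2:95175974-95176033 on rn4, plus strand.
Hey1 probe at 482: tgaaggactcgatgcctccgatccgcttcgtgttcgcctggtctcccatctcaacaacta
The levels were -1.38, 0.24, -5.70 and -2.71 in p75 and -2.82, -6.11, -2.89 and -5.49 in CD90. They were -5.91, -4.73, -6.11 and -6.36 in TRKA and -6.40, -5.89, -5.84 and -6.82 in TRKA-TGF. The p75 arrays spread from -5.70 to 0.24, and the lowest of them, which was not above background, lay among the TRKA levels.

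Hey1 was lower in TRKA-TGF than in p75 by a difference of -3.85, with a 95% interval from -6.15 to -1.56 (limma adjusted p = 0.0246). It was also lower in TRKA than in p75, by a difference of -3.39 ± 1.07 (SE, adjusted p = 0.0239). Leaving out one array at a time ended the first in 4 of 8 fits (limma adjusted p up to 0.0758). Its size went down to -1.92 log2 units under other scalings. The second was lost with p75 replicate 1, p75 replicate 2 or TRKA replicate 4 left out, after quantile normalization (-1.64, adjusted p = 0.263), with normexp, and in the authors' deposited table (adjusted p = 0.184). CD90 lay between, and its differences from the other 3 groups did not pass the test.

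**Figure D3:**
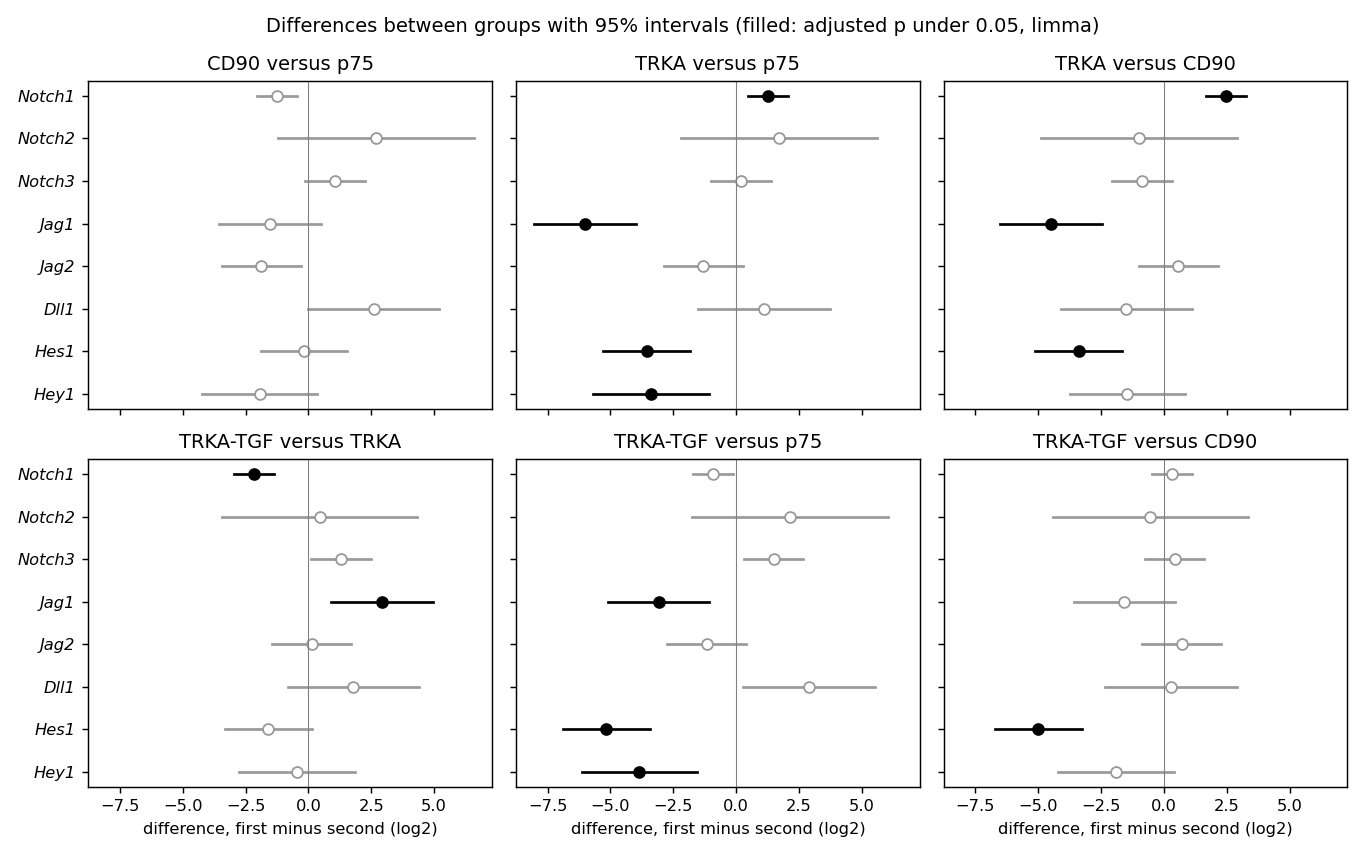
Difference of each member (first group minus second, log2) in the 6 comparisons, with its 95% interval from the limma fit. Filled black points passed an adjusted p under 0.05. The intervals of Notch2 are the widest and those of Notch1 the narrowest, with standard errors of 1.81 and 0.37.

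Over the 16 arrays the levels of members correlated most for Notch3 with Dll1 (r = 0.67) and for Hes1 with Hey1 (r = 0.66), then for Jag1 with Hes1 (r = 0.51) and with Hey1 (r = 0.49). The lowest value was that of Notch1 with Jag1 (r = -0.51), on the Notch1 probe at position 9315. These 16 arrays hold 4 groups, 2 slides and unequal shares of spots above background, and the values are a description. The genes whose levels ran most like a member's were listed from 14138 genes with a current symbol. Jag1 ran most like Igfbp5 (r = 0.97), Bcar3 and Tnc, and Hes1 most like Ly6c (r = 0.96), Pdlim3 and Col5a1. Hey1 ran most like Rerg, Mansc1 and Me3, each at r = 0.84. On its probe at position 9315, Notch1 ran most like Fos (r = 0.93), an immediate early gene, Arpc1a and Rps16.

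For Notch2 these genes were Hsph1, Ptger1 and Ybx3, with r from 0.85 to 0.87, and for Notch3 they were Kcnj9, Lce3fl1 and Ubash3a, with r from 0.80 to 0.83. For Jag2 they were Ildr2, Klhl25 and Mal, led by r = 0.90, and for Dll1 they were Lenep, Fam3d and 2200002J24Rikl, led by r = 0.90. Col5a1, a fibrillar collagen chain, had mean levels of 3.75 in CD90, 3.29 in p75, -4.54 in TRKA and -7.84 in TRKA-TGF, in the same split of groups as Hes1. Tnc, which encodes tenascin C, had mean levels of 5.45 in p75, 5.14 in CD90, 0.64 in TRKA-TGF and -3.10 in TRKA, the order of Jag1.

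The other genes of the pathway were taken from a list of 67, by role, of which 61 were on the array and 56 were tested. In TRKA against p75, 4 were higher and 8 lower, so that 21.4% were called beside 35.7% of all genes, and in TRKA-TGF against p75, 2 were higher and 6 lower (14.3% beside 15.1%). In TRKA against CD90, 6 were higher and 10 lower (28.6% beside 34.9%), and in TRKA-TGF against CD90, 2 were higher and 8 lower (17.9% beside 14.9%). In TRKA-TGF against TRKA, 6 were higher and 3 lower (16.1% beside 26.4%), and in CD90 against p75, 2 were higher and 4 lower (6 of 56, beside 7.25% of all genes). The median difference of the 56 in TRKA against p75 was -1.0, beside -0.01 over all genes. The names below are genes called in at least 3 of the 6 comparisons, with others of a role group where its count is given.

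In the Hes and Hey family, 6 genes besides the members were tested, and in TRKA and in TRKA-TGF alike 2 of the 6 were lower than in p75. Both were Hey genes. Heyl had a mean level of -0.58 ± 1.10 (SD, n = 4) in p75, -4.28 ± 1.69 in TRKA-TGF, -6.17 ± 1.27 in CD90 and -6.62 ± 1.68 in TRKA, and was lower than in p75 in all 3 other groups (limma adjusted p from 0.000282 to 0.0196). Hey2 had a mean level of -2.19 ± 0.62 in p75 and between -6.09 and -5.17 in the others, and was lower in TRKA and TRKA-TGF. With Hes1 and Hey1 this made 4 of 8 genes of the family lower than p75 in each of these comparisons, where 16.9% of all genes were lower in TRKA and 7.15% in TRKA-TGF, and 1 of 8, Hes1, lower than CD90 in each. In TRKA against p75 the count depended on the scaling, with 2 higher and 2 lower after quantile normalization, 2 higher and 3 lower in the authors' deposited table, 1 higher and 3 lower with normexp, and 5 lower when scaled on probes well above background on all arrays.

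The other 4 genes of the family, Hes2, Hes3, Hes6 and Hes7, were called in no comparison at the 75th percentile scaling. Under other scalings Hes2 was called higher in TRKA than in p75 after quantile normalization (2.11) and in the authors' deposited table (1.88), Hes7 likewise under these and normexp (0.62 to 0.73), and Hes3 was called lower under the scaling on probes above background. Hes7 had mean levels between -0.59 and 0.08, with SDs up to 0.45. The 3 Hey genes therefore had their highest mean in p75, and Hes1 had its higher means in both p75 and CD90. The direction of the 4 calls between TRKA-TGF and p75 was the same under all 4 other scalings, and each was called under all of them. Between TRKA and p75, Heyl and Hey2 were called under all 4 scalings, Hes1 under 3 and Hey1 under 1. On the p75 arrays the summed level of the glial list was 7.05 to 7.12, against 1.44 to 1.63 in TRKA-TGF, 0.21 to 0.86 in CD90 and -1.37 to 0.12 in TRKA. The part of the glial genes in the Hey pattern was not tested.

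**Figure D4:**
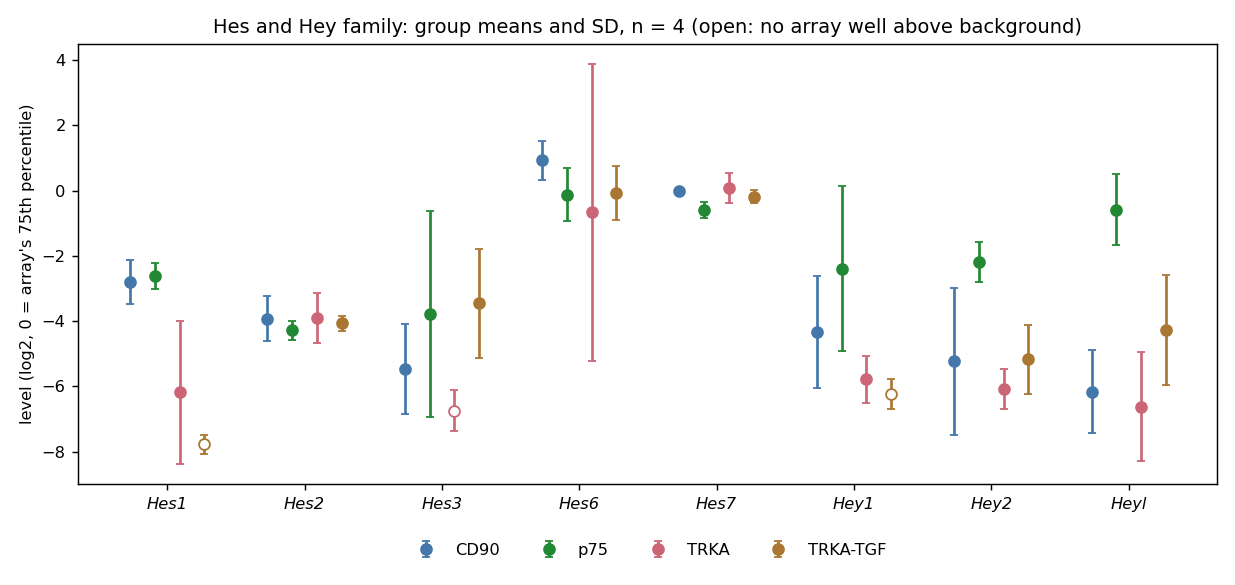
Group means with SD (n = 4 arrays, log2 relative to the array's 75th percentile) of the 8 tested Hes and Hey genes in the 4 groups. Open points had no array well above background. Hey1, Hey2 and Heyl have their highest mean in p75, Heyl at -0.58, while Hes1 is near -2.62 in p75 and -2.79 in CD90.

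Among genes listed as other targets, 2 of 6 were lower and 1 was higher in TRKA than in p75, beside 35.7% of all genes called, and 4 were lower when scaled on probes well above background on all arrays. Id4, an inhibitor of basic helix-loop-helix factors, had mean levels of -0.49 ± 0.36 in p75 and -1.75 ± 0.27 in CD90, and of -7.08 ± 0.72 in TRKA and -7.37 ± 0.55 in TRKA-TGF. Gata2, a zinc finger transcription factor, showed the same split, at -0.83 and -0.64 in p75 and CD90 and -5.15 and -5.07 in TRKA and TRKA-TGF. Myc went the other way, with a mean level of 3.89 ± 0.28 in TRKA against 1.09 to 1.96 in the other groups. Id4 and Gata2 were thus called lower in both TRKA populations against both others, in 4 of 6 comparisons each, as were Lnx1 and Numbl below, and no call of Id4, Gata2, Lnx1 or Myc was lost under another scaling. Id4 and Gata2 too split the groups as the summed level of the smooth muscle and pericyte list did. That split was again opposite to the summed level of the macrophage list. By counts the fibroblast list went the same way against CD90, with 11 of its 12 genes lower in each TRKA population. All genes lower there were 16.6% in TRKA and 7.19% in TRKA-TGF. The part of these lists in the Id4 and Gata2 results was not tested.

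The fourth receptor, Notch4, best known from endothelium, had mean levels of -2.26 ± 2.00 in CD90 and -2.36 ± 2.38 in TRKA-TGF, against -6.05 in TRKA and -6.08 in p75. It was called lower in TRKA than in CD90, and higher in TRKA-TGF than in TRKA and in p75 (limma adjusted p = 0.0397 for the last). The first pair of these calls were each made under 1 of 4 other scalings, and the last under all 4. The endothelial markers did not follow one pattern. Cdh5 was well above background on all 16 arrays, with mean levels of -2.13 in TRKA-TGF and -2.22 in CD90, against -3.10 in TRKA and -3.64 in p75. Pecam1 was well above background on no CD90 or p75 array, on 4 TRKA arrays and on 3 TRKA-TGF arrays, and Kdr on 4 CD90, 4 p75, 3 TRKA and 1 TRKA-TGF arrays. The summed level of the 8 endothelial genes ran from -1.22 to 1.83 in CD90, -1.79 to 0.47 in p75, 0.018 to 2.59 in TRKA and 1.66 to 2.50 in TRKA-TGF, and their part in the Notch4 result was not tested. Among non-canonical ligands, 2 of 4 were higher in CD90 than in p75, beside 3.68% of all genes higher. For Mfap5, a microfibril protein that the fibroblast list also holds, the bound put the CD90 mean at least 94.7-fold above that of p75 (limma adjusted p = 0.00261). Under the 4 other scalings the Mfap5 difference stayed called but went down to 3.89 log2 units. Dlk1, an inhibitory Delta-like protein, was higher in CD90 than in p75 by 1.41 (adjusted p = 0.0313), a call that 2 of 4 scalings lost.

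Of the 9 genes that cut the receptor, 4 were higher in TRKA than in CD90 and none was lower, beside 18.3% of all genes higher. Under 3 of 4 other scalings, all but normexp, 1 was lower. Aph1a, Aph1b and Psenen, which encode subunits of gamma-secretase, were 3 of these (limma adjusted p from 3.53e-05 to 0.000162). The first pair were higher by 2.76 and 2.71, and Psenen had mean levels of 3.24 in TRKA and -0.16 in CD90. The fourth was Furin, at 2.62 (adjusted p = 0.0354). Against p75 only Aph1a was higher in TRKA, by 2.96, and Aph1b and Psenen were lower in CD90 than in p75, by differences of -1.68 and -2.13. In TRKA-TGF against TRKA, 2 of the 9 were higher and 1 was lower, beside 26.4% of all genes called. The catalytic subunit gene Psen2 was higher in TRKA-TGF by 4.03 (adjusted p = 0.0193), with 2 of 4 TRKA arrays well above background. Adam17, an ADAM protease gene, was higher by 2.05, while Adam10 was called in no comparison. Aph1a was the lower one, with mean levels of 0.71 in TRKA-TGF and 2.85 in TRKA.

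Of 9 genes of the nuclear complex, 1 was higher and 2 were lower in TRKA than in p75, beside 35.7% of all genes called. Rbpj itself was called in no comparison, with mean levels from 1.04 in p75 to 2.07 in TRKA-TGF. The co-activator gene Maml1 had a mean level of -5.83 ± 3.88 in TRKA, where 1 of 4 arrays was well above background, against means from -1.58 to -0.15 in the other groups, and TRKA was called lower than each of the others. Snw1, a co-regulator of the complex, was higher in TRKA than in p75 by 1.30 and than in CD90 by 1.48, and lower in TRKA-TGF than in TRKA by a difference of -1.24, and each of these calls was made under 1 of 4 other scalings. Tle1, a co-repressor of Hes proteins, was lower in TRKA than in p75 by a difference of -2.16.

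Among 13 genes of trafficking and ubiquitin ligation, 2 were lower and none higher in TRKA than in p75, beside 35.7% of all genes called. After quantile normalization 2 were higher and 2 lower, and 5 were lower when scaled on probes well above background on all arrays. For Numbl, related to the Notch inhibitor Numb, the bound put the TRKA mean at least 57.5-fold below that of p75. Under other scalings the size of the Numbl difference went down to -2.95 log2 units. Lnx1, a ubiquitin ligase of Numb, was lower in TRKA than in p75 by a difference of -4.58. Of 7 genes that glycosylate the receptor, 1 was called in each of TRKA and TRKA-TGF against p75, beside 35.7% and 15.1% of all genes called. Lfng, a fringe glycosyltransferase, was higher in TRKA-TGF than in p75 by 2.78 (limma adjusted p = 0.0321), while the Gxylt1 call in TRKA, at 0.62, turned to the opposite sign under 3 of 4 scalings.

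**Figure D5:**
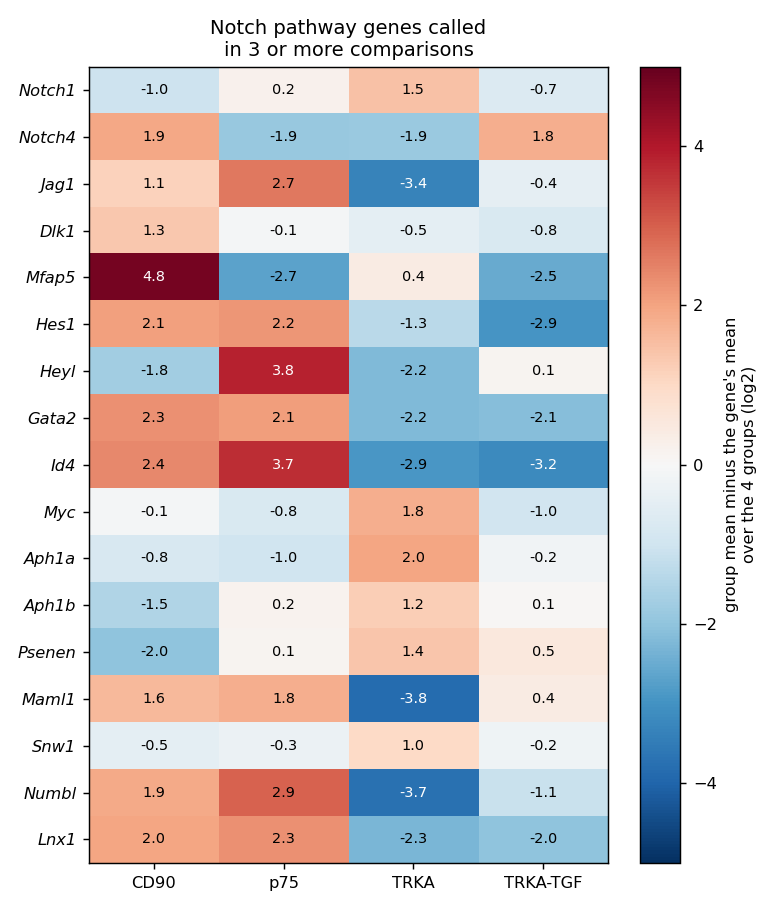
Notch pathway genes called in 3 or more of the 6 comparisons, with 17 genes in rows and the 4 groups in columns. Each cell is the group's mean level minus the mean of that gene over the 4 groups (log2, red higher, blue lower). Id4, Gata2, Lnx1, Numbl and Hes1 are red in CD90 and p75 and blue in both TRKA groups, and Notch1 is shown by its probe at position 9315.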

How the data were processed

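Expression was measured in 16 samples on single-colour Agilent rat arrays, 4 samples in each of 4 groups, with positions on rn4 per the file headers. The intensity values are the processed signals that the authors deposited as scanner output, made with Agilent Feature Extraction 10.7.3.1 per the file headers, while the submitters' processing notes name 10.5. The authors also deposited a log2 table, whose columns ran at a slope near 1.00 with quantile-normalized log2 signals centred per probe (column medians from -0.03 to 0.19). The labels do not state its steps, and it served as an alternative only.

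Spots of a probe were averaged on the log2 scale without outlier-flagged spots, and the 75th percentile over the 30367 probes was subtracted on each array. Probes well above background on 4 or more of the 16 arrays were kept, and the kept probe with the highest mean stood for its gene. Of the probes, 18355 were named through RefSeq accessions, 3180 through a symbol or synonym, and 8832 kept the name in the file. The test of differences was that of limma 3.58.1, under R 4.3.3 (lmFit and eBayes, 1 mean per group over 16 arrays, 12 residual degrees of freedom) with Benjamini-Hochberg adjustment over all genes, called at an adjusted p under 0.05. The script was tested on simulated data. The number of arrays limits the precision.

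The members and the gene lists were chosen with earlier results of these data known. All members are named with all their probes. Other pathway genes are named if called in at least 3 of 6 comparisons or with the count of their role group. Marker genes enter as whole lists, with the first 3 genes named for the endothelial and fibroblast lists only. Levels of the epithelial and olfactory neuron lists are not given. For each member the 3 genes of highest Pearson correlation are named. Notch3 and Egfl7 were taken out of the marker lists, since the pathway list holds them. Mfap5, which the pathway list holds too, stayed in the fibroblast list. Alternatives were quantile normalization, normexp (offset 50), a percentile over probes above background on all arrays, no filter, a filter at 8 arrays, the mean of kept probes, the authors' table, the arrays of 2 groups alone, a replicate block, and each array left out. The other Notch1 probe was an alternative chosen after seeing the data. The level of 1 gene is not reported here.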

Additional observations from a re-analysis of the deposited data

How the results depend on the processing

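The 13 called differences of single members were refitted 222 times under the alternatives. Of these fits 179 kept the call, 38 lost it and 5 turned the sign, the last all for Notch1 with its other probe or the mean of both. The 35 differences that were not called were refitted 588 times, and 22 of these fits gave a call: 6 for Notch3, 5 for Notch1, 5 for Jag2, 4 for Jag1 and 2 for Dll1. The calls of Jag1 in TRKA against p75 and CD90 and of Hes1 in TRKA-TGF against p75 and CD90 were kept in every alternative run. The TRKA arrays had the lowest signal over background, which limits what was measurable for Jag1, Hes1, Hey1 and Dll1 there.

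The deviations of same-numbered samples from their group means correlated between -0.03 and 0.04. This gave no sign of pairing, but with 4 samples per group it cannot exclude a shared animal or culture. With the replicate number as a block, 1323 of all genes were called in CD90 against p75, 7160 in TRKA against p75, 6940 in TRKA against CD90, 5114 in TRKA-TGF against TRKA, 2919 in TRKA-TGF against p75 and 2845 in TRKA-TGF against CD90. The members called were 0, 4, 3, 2, 2 and 1 in that order, and Jag1 in TRKA-TGF against p75 was the call lost (adjusted p = 0.0539, limma).

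In CD90 against p75, 1 member was called after quantile normalization, 2 with normexp, 1 in the authors' table and 1 with the arrays of 2 groups alone. In TRKA against p75, 2 members were called after quantile normalization. In TRKA-TGF against TRKA, 1 was called after quantile normalization, with normexp, with the mean of the kept probes, in the authors' table and with 2 groups alone. In TRKA-TGF against CD90, 2 were called with normexp and 2 with the arrays of 2 groups alone. With single arrays left out, members called ranged from 0 to 1 in CD90 against p75, 3 to 5 in TRKA against p75, 3 to 3 in TRKA against CD90, 1 to 2 in TRKA-TGF against TRKA, 1 to 2 in TRKA-TGF against p75 and 1 to 1 in TRKA-TGF against CD90. All genes called ranged likewise from 1199 to 1293, 6280 to 7671, 6288 to 7372, 4327 to 5819, 2532 to 2688 and 2441 to 2646.

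The share of calls that were higher in the first group was 52.7% of genes in TRKA against p75, 52.3% in TRKA against CD90 and 51.1% in TRKA-TGF against TRKA. Scaled on probes well above background on all arrays it was 20.7%, 18.7% and 82.9%, with median differences of -0.90, -1.07 and 0.96 over all genes. With normexp it was 66.9%, 62.7% and 38.8%, after quantile normalization 62.2% and 61.3% against p75 and CD90 and 39.2% in TRKA-TGF against TRKA, and it came to 39.9% for TRKA-TGF against TRKA on the authors' values.

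These differences changed sign, with the cause not tested unless the setting names it. With the mean of the kept probes, Notch1 was -1.10 in TRKA against p75, -0.40 in TRKA against CD90 and -0.52 in TRKA-TGF against CD90, and with its other probe -3.46, -3.30 and -1.38, and 1.92 in TRKA-TGF against TRKA. After quantile normalization, Jag2 was 0.10 in TRKA against p75 and -1.40 in TRKA-TGF against TRKA, and Hey1 was 0.49 in TRKA against CD90. In the authors' table Hey1 was 0.17 there, and Jag2 was -1.31 in TRKA-TGF against TRKA. With normexp in TRKA-TGF against TRKA, Notch2 was -0.30 and Jag2 -0.047, and Dll1 was -0.26 in TRKA-TGF against CD90. Scaled on probes above background on all arrays, Notch3 was -0.70 in TRKA against p75, Jag2 -0.40 in TRKA against CD90, and Hey1 0.30 in TRKA-TGF against TRKA. With single arrays left out, Hes1 ranged from -0.49 to 0.021 in CD90 against p75, Notch3 from -0.076 to 0.52 in TRKA against p75, and Dll1 from -0.73 to 1.72 in TRKA-TGF against CD90. In TRKA against CD90, Notch2 ranged from -2.17 to 0.93 and Jag2 from -0.074 to 0.93, and in TRKA-TGF against TRKA, Notch2 from -1.47 to 1.63 and Jag2 from -0.22 to 0.79. No difference in the last pair of sentences was called.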
